A study of Mus musculus with 8 samples.

Results

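The NRF2 antioxidant response was followed through 10 genes of 20278 listed in mouse N33 embryonic stem cells (ESCs). They were chosen by symbol: Nfe2l2 and Keap1, the factor and its inhibitor, and 8 known NRF2 targets, namely Gclc, Gclm, Txnrd1, Srxn1, Nqo1, Hmox1, Gsta4 and Gstm1. N33 is a line derived from C57BL/6J mice (C57BL/6 in the labels), and poly-A RNA was sequenced from 2 biological replicates in each of 4 culture conditions. Cells without feeders (−F) grew on gelatin in 20% fetal bovine serum, and cells with feeders (F) grew in the same serum on mouse embryonic fibroblasts (MEFs) arrested with mitomycin C. The third condition (F2i) added the 2i inhibitors to feeders and serum, at doses that the labels do not state. The fourth (NB2i) was N2B27 medium without serum or feeders, on poly-L-ornithine and laminin, with 3 µM CHIR99021 (a GSK3 inhibitor) and 1 µM PD0325901 (a MEK inhibitor). All groups received leukemia inhibitory factor (LIF) at 1000 U/ml, non-essential amino acids and β-mercaptoethanol, which is itself a reducing agent. The groups stand for a single ESC line, and NB2i differed from −F in medium, coating, serum and inhibitors at once, so that the effects of these cannot be told apart. NB2i differed from F2i in feeders, serum, medium and growth surface, and perhaps in inhibitor doses, and these effects cannot be told apart either.

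NRF2, the protein of Nfe2l2, is held low in unstressed cells by KEAP1, an adaptor that brings it to a CUL3 ubiquitin ligase. Electrophiles and oxidants modify cysteines of KEAP1, NRF2 then accumulates, pairs with a small MAF protein and binds the antioxidant response element (ARE) of its targets, where BACH1 can compete with it as a repressor. The targets make glutathione, keep thioredoxin and peroxiredoxins reduced, and reduce or conjugate reactive compounds. GSK3, the target of CHIR99021, is known to mark NRF2 for a second route of degradation. Since NRF2 is regulated largely as a protein, mRNA levels do not measure its activity.

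ARE cores were looked for in the members' promoters because NRF2 acts through this element. The letters TGACNNNGC were searched on both strands from 250 bases before to 50 bases after each RefSeq start site (GRCm38.p6), with overlaps allowed. Windows were given for 7 members, 10 windows in all, with no entry for Hmox1, Gclc and Gsta4. A match lay in the windows of 4 members, Nfe2l2, Gclm, Srxn1 and 1 of 3 windows of Txnrd1, and 12.4% of all 32851 promoter windows held one. The 3 matches that lay before a start site are printed 5′ to 3′ on the gene's strand, with the matched bases in capitals. That of Srxn1 lay after its start site. Whether a match goes with a change in expression was not tested.
Nfe2l2, chr2:75704875-75704913, minus strand, match 240 bases before the start: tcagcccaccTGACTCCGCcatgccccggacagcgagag
Gclm, chr3:122245403-122245451, plus strand, match 134 bases before the start: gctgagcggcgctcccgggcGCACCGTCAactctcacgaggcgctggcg
Txnrd1, second window, chr10:82859094-82859142, plus strand, match 92 bases before the start: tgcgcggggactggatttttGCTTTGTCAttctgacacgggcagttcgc
The Nfe2l2 match reads in the gene's direction, and those of Gclm and Txnrd1 are on the other strand, so that their capitals show the reverse complement of the motif. A match describes letters, not binding, and the windows of Keap1, Nqo1 and Gstm1 without one say nothing of elements elsewhere.

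Total expected counts were 20129641 to 20664488 per sample, and every member was listed in all 8 samples and passed the filter of at least 10 counts in at least 2 samples. All 10 ESC markers were at 1 FPKM or more in every sample, but their levels differed between conditions. In NB2i against −F 7 were higher and 3 lower in edgeR (36.9% and 35.4% of all genes). Among them, mean FPKM of Tbx3 went from 6.96 in −F to 65.475 in NB2i and that of Utf1 from 477.77 to 47.1. Of 18 fibroblast markers, 5 were at 1 FPKM or more in each −F sample, 17 in each F sample, 16 and 15 in the F2i samples, and 2 and 1 in the NB2i samples. Their summed FPKM was 112.55 to 115.4 in −F, 478.46 to 501.97 in F, 1096.99 to 1123.65 in F2i and 337.2 to 361.44 in NB2i. Without Fn1, which was set apart after its values were seen, the sums were 16.71 to 16.78, 308.75 to 321.94, 792.48 to 805.82 and 2.98 to 3.57. Postn, Lum, Dcn and S100a4 were listed at 0 in both NB2i samples, and Lum in both −F samples. In edgeR all 18 markers were higher in F than in −F (21.7% of all genes). In F2i against F 13 were higher and 1 (Pdgfra) was lower (27.3% and 27.4% of all genes), and 4 (Lum, Dcn, Twist2 and S100a4) were not called. The part of the 18 markers in the differences given below for F and F2i was not tested. In such bulk RNA, fewer cells of a type and less RNA per cell cannot be told apart.

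Nfe2l2 was higher with 2i, and highest in NB2i. Its FPKM was 47.66 and 49.64 in −F, 45.14 and 45.73 in F, 55.45 and 58.58 in F2i, and 67.40 and 64.76 in NB2i. The order F, −F, F2i, NB2i held without overlap, although F and −F did not differ in edgeR (log2 fold change −0.08, SE 0.05, adjusted p = 0.209). Nfe2l2 rose 1.28-fold from F to F2i (log2 fold change 0.36, SE 0.05, adjusted p = 1.11e-06), 1.17-fold from F2i to NB2i (0.23, SE 0.05, adjusted p = 0.000143) and 1.43-fold from −F to NB2i (0.51, SE 0.05, adjusted p = 1.53e-09).

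Keap1, whose product targets NRF2 for degradation, was well below that level in each sample. Its FPKM was 10.82 and 10.90 in −F, 10.19 and 9.65 in F, 11.70 and 12.27 in F2i, and 14.40 and 15.04 in NB2i. It had the same order of conditions as Nfe2l2, again without a call between F and −F (log2 fold change −0.06, SE 0.07, adjusted p = 0.512). It rose by a log2 fold change of 0.31 (SE 0.06) from F to F2i, by 0.25 (SE 0.06) from F2i to NB2i and by 0.50 (SE 0.06) from −F to NB2i, with adjusted p-values of 0.000308, 0.00141 and 2.88e-07. The FPKM ratio of Nfe2l2 over Keap1 stayed between 4.31 and 4.77 in all 8 samples, and the ranges of −F, F and NB2i overlapped.

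**Figure D1:**
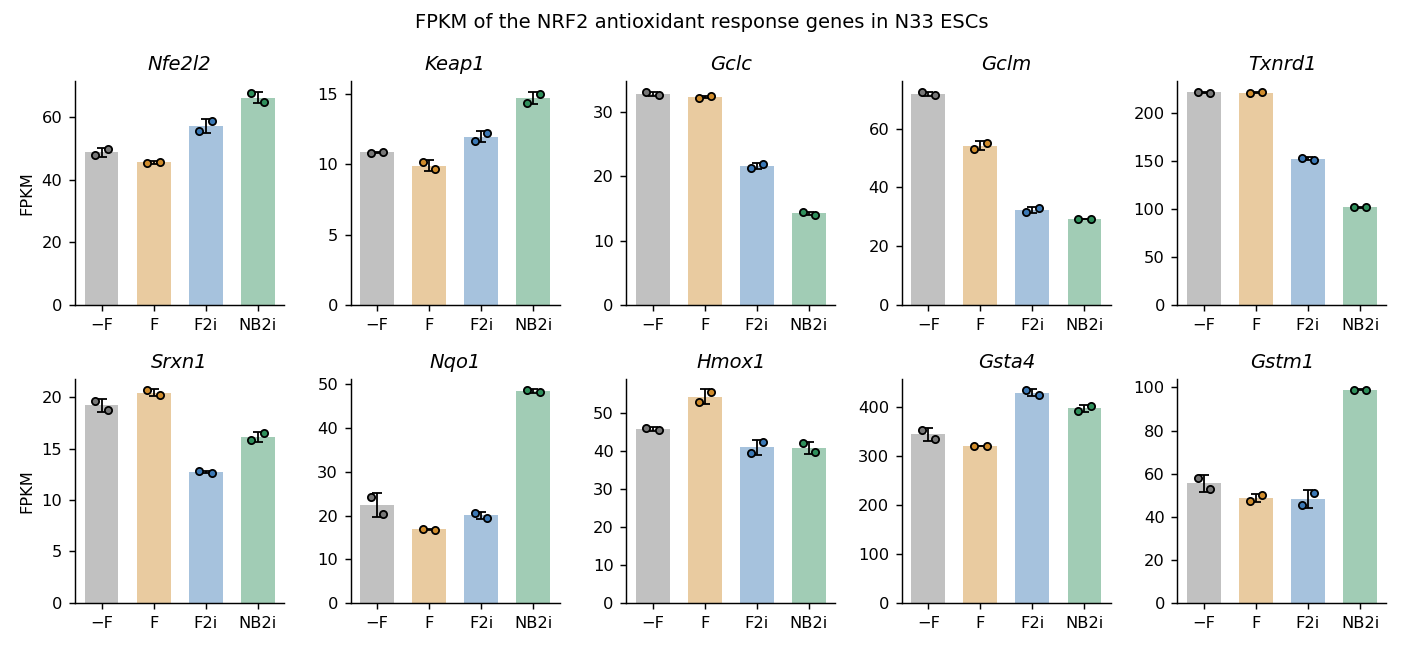
FPKM (y axis, from 0) of the 10 genes in the 4 culture conditions (x axis); points are the 2 samples of a condition, bars their mean and error bars the SD. Gclc, Gclm and Txnrd1 are lowest in NB2i, at 14.08 to 14.45, 29.18 to 29.28 and 101.92 to 102.50 FPKM, whereas Nfe2l2, Keap1, Nqo1 and Gstm1 are highest there.

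The enzyme that limits glutathione synthesis, glutamate-cysteine ligase, fell at the mRNA level in both subunits when 2i was present. Gclc, the catalytic subunit, had an FPKM of 33.05 and 32.60 in −F, 32.22 and 32.41 in F, 21.32 and 21.91 in F2i, and 14.45 and 14.08 in NB2i. The serum conditions without 2i lay within 1 FPKM of each other, and F and −F did not differ (log2 fold change 0.0001, SE 0.04, adjusted p = 0.999). Gclc fell 1.46-fold from F to F2i (adjusted p = 1.31e-09), 1.51-fold from F2i to NB2i (adjusted p = 8.88e-10) and 2.20-fold from −F to NB2i (log2 fold change −1.14, SE 0.05, adjusted p = 3.03e-15).

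Gclm, the modifier subunit that raises the activity of the ligase, also differed with feeders alone. Its FPKM was 72.32 and 71.38 in −F, 53.03 and 55.22 in F, 31.59 and 33.15 in F2i, and 29.28 and 29.18 in NB2i, 4 levels without overlap. It fell 1.31-fold from −F to F (log2 fold change −0.39, SE 0.04, adjusted p = 3.8e-07), 1.63-fold from F to F2i (adjusted p = 3.46e-11) and 2.35-fold from −F to NB2i (log2 fold change −1.23, SE 0.05, adjusted p = 5.52e-16). From F2i to NB2i the fall was 1.10-fold (log2 fold change −0.14, SE 0.05, adjusted p = 0.0185). That call was lost without F2i replicate 2 (adjusted p = 0.164), NB2i replicate 1 (0.0607) or NB2i replicate 2 (0.0882).

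The balance of the subunit mRNAs therefore differed between conditions, and protein was not measured in these data. The FPKM ratio of Gclm over Gclc was 2.19 in each −F sample, 1.65 and 1.70 in F, 1.48 and 1.51 in F2i, and 2.03 and 2.07 in NB2i. The 4 ranges did not overlap, and with 2 samples a group an exact permutation test of a ratio cannot give a p below 0.333. NB2i lay nearer to −F in the ratio than either feeder condition did, although both mRNAs had their lowest levels in NB2i.

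**Figure D2:**
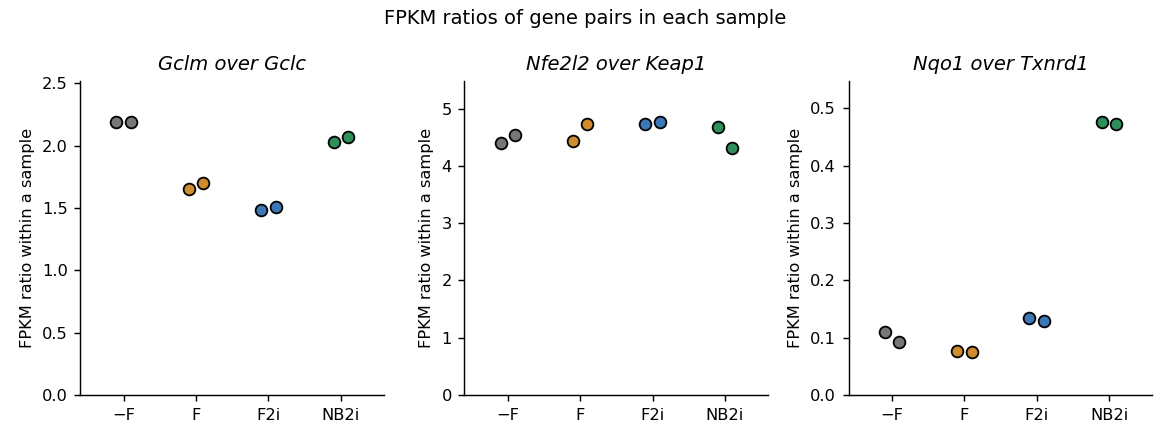
FPKM ratios of 3 gene pairs in each sample (y axes from 0, points are samples) by culture condition (x axis). Gclm over Gclc is 1.48 to 1.70 in both feeder conditions and 2.03 to 2.19 in both conditions without feeders, Nfe2l2 over Keap1 stays between 4.31 and 4.77, and Nqo1 over Txnrd1 is highest in NB2i, at 0.473 to 0.476.

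Txnrd1, the cytosolic thioredoxin reductase that keeps thioredoxin reduced, was among the most abundant members and moved much as Gclc did. Its FPKM was 222.47 and 221.49 in −F, 221.10 and 222.06 in F, 153.69 and 151.59 in F2i, and 102.50 and 101.92 in NB2i. The ranges of −F and F overlapped (log2 fold change 0.02, SE 0.04, adjusted p = 0.702). Txnrd1 fell 1.41-fold from F to F2i (adjusted p = 4.4e-10), 1.49-fold from F2i to NB2i (adjusted p = 4.42e-11) and 2.07-fold from −F to NB2i (log2 fold change −1.05, SE 0.04, adjusted p = 4.98e-16). Across the 8 samples Pearson's r of log2(FPKM + 1) between Txnrd1 and Gclc was 0.999, a description over 4 conditions in pairs and not over independent samples.

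Srxn1, sulfiredoxin, which repairs overoxidized peroxiredoxins, was lowest in F2i. Its FPKM was 19.66 and 18.75 in −F, 20.66 and 20.18 in F, 12.84 and 12.68 in F2i, and 15.83 and 16.51 in NB2i. It fell 1.56-fold from F to F2i (log2 fold change −0.64, SE 0.06, adjusted p = 4.07e-09) and rose 1.27-fold from F2i to NB2i (0.35, SE 0.06, adjusted p = 2.56e-05). NB2i lay 1.13-fold below −F (adjusted p = 0.00637), a call lost without −F replicate 1 (adjusted p = 0.0534) or NB2i replicate 1 (0.0753), and F against −F gave a log2 fold change of 0.11 (SE 0.05, adjusted p = 0.112).

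Nqo1, the quinone reductase most often read as an NRF2 target, went the other way from Gclc, Gclm and Txnrd1 in NB2i. Its FPKM was 24.29 and 20.46 in −F, 16.93 and 16.79 in F, 20.55 and 19.51 in F2i, and 48.74 and 48.16 in NB2i. NB2i stood clear of all other samples, whereas −F and F2i overlapped and F was lowest. Nqo1 rose 2.43-fold from F2i to NB2i (log2 fold change 1.28, SE 0.07, adjusted p = 4.38e-13) and 2.27-fold from −F to NB2i (1.18, SE 0.07, adjusted p = 6.24e-13). It was 1.31-fold lower in F than in −F (log2 fold change −0.39, SE 0.08, adjusted p = 0.000316) and 1.22-fold higher in F2i than in F (0.29, SE 0.08, adjusted p = 0.00324), the latter lost with limma and no filter (adjusted p = 0.053). The FPKM ratio of Nqo1 over Txnrd1 was 0.0924 and 0.109 in −F, 0.0756 and 0.0766 in F, 0.129 and 0.134 in F2i, and 0.473 and 0.476 in NB2i.

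Hmox1, which splits heme into biliverdin, iron and carbon monoxide and is repressed by BACH1, was highest on feeders in serum. Its FPKM was 46.12 and 45.46 in −F, 52.88 and 55.63 in F, 39.48 and 42.36 in F2i, and 41.98 and 39.73 in NB2i. It rose 1.20-fold from −F to F (log2 fold change 0.27, SE 0.05, adjusted p = 0.000257) and fell 1.29-fold from F to F2i (−0.37, SE 0.05, adjusted p = 3.41e-06). F2i and NB2i overlapped (log2 fold change 0.004, SE 0.05, adjusted p = 0.957). NB2i against −F gave −0.10 (SE 0.05, adjusted p = 0.103), although the samples did not overlap and 5 of the alternative settings called it lower.

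Gsta4, a glutathione transferase that conjugates lipid peroxidation products such as hydroxynonenal, had the highest FPKM of the 10 genes in every condition. Its FPKM was 353.18 and 334.63 in −F, 320.89 and 320.93 in F, 433.57 and 424.19 in F2i, and 391.13 and 402.04 in NB2i. It rose 1.37-fold from F to F2i (log2 fold change 0.46, SE 0.04, adjusted p = 4.86e-09) and 1.21-fold from −F to NB2i (0.27, SE 0.04, adjusted p = 4.47e-06). From F2i to NB2i it was 1.08-fold lower (adjusted p = 0.0278), and that call was lost when any single F2i or NB2i sample was left out (adjusted p from 0.0585 to 0.159). F against −F gave a log2 fold change of −0.08 (SE 0.04, adjusted p = 0.149), called only without −F replicate 2 (−0.11, adjusted p = 0.0415).

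Gstm1, a glutathione transferase of the mu class, resembled Nqo1 in its rise in NB2i. Its FPKM was 58.12 and 52.72 in −F, 47.30 and 49.93 in F, 45.44 and 51.06 in F2i, and 99.03 and 98.77 in NB2i, so that F and F2i overlapped (log2 fold change 0.03, SE 0.06, adjusted p = 0.731). It rose 2.06-fold from F2i to NB2i (log2 fold change 1.04, SE 0.06, adjusted p = 6.38e-13) and 1.87-fold from −F to NB2i (0.90, SE 0.06, adjusted p = 2.66e-12). It was 1.12-fold lower in F than in −F (log2 fold change −0.17, SE 0.06, adjusted p = 0.0301), a call lost in DESeq2 (adjusted p = 0.0626), without a filter on counts (0.0794), with limma (0.0587 to 0.108), without −F replicate 1 (0.28) or without F replicate 1 (0.206).
Gstm1 was the single member whose expected counts were not whole to within 0.02 in every sample, as happens where reads map to more than one gene, so its own level is uncertain. Which genes share its reads is not given in the sources used here. The summed expected counts of Gstm1 to Gstm7, as CPM of the sample's total, were 139 and 133 in −F, 126 and 125 in F, 116 and 123 in F2i, and 240 and 243 in NB2i. The family sum thus had the same high condition as Gstm1 alone.

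**Figure D3:**
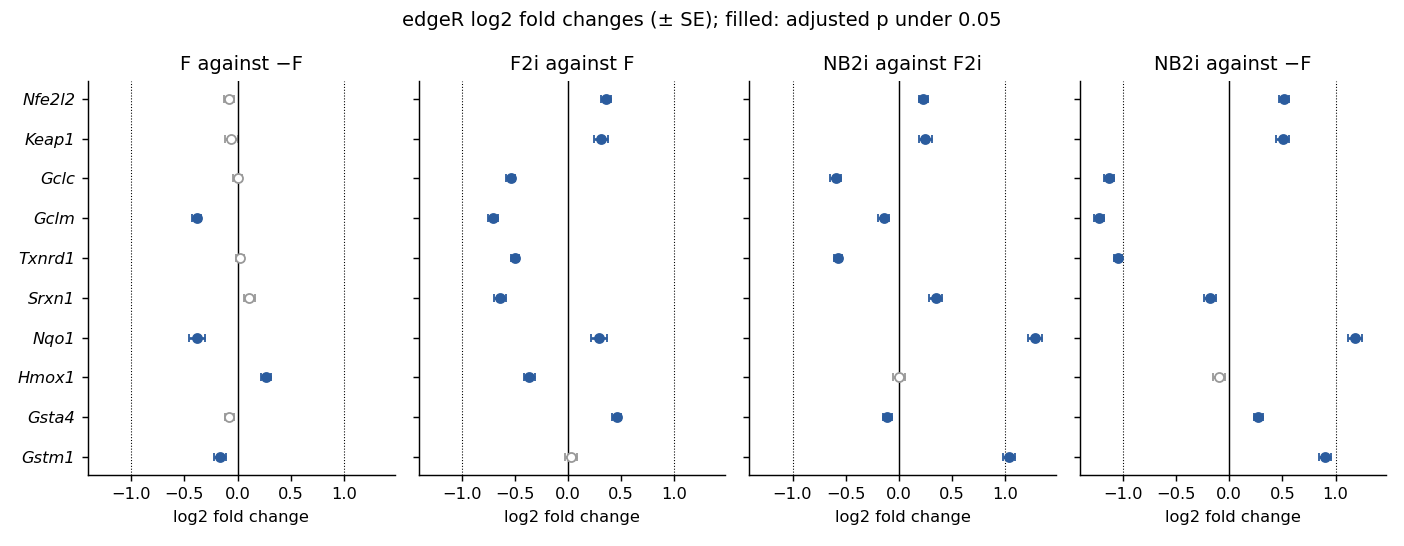
edgeR log2 fold changes of the 10 genes (x axis) in the 4 comparisons (panels); bars are ± SE, filled points passed an adjusted p of 0.05, and dotted lines mark 2-fold. Nqo1 and Gstm1 pass 2-fold upward from F2i to NB2i, and Gclc, Gclm and Txnrd1 pass it downward from −F to NB2i.

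Counted together, the members were called in both directions in every comparison. In F against −F, 1 member was higher (21.7% of all 15287 genes tested) and 3 were lower (18.5% of all genes) in edgeR. Past 2-fold, 0 members were called in either direction by edgeR, also at an unadjusted p under 0.05, or by DESeq2 or limma, beside 5.59% of all genes higher and 1.65% lower in edgeR. The median log2 fold change of the members was −0.07, beside 0.00 over all genes tested. In F2i against F, 4 were higher (27.3% of all genes) and 5 lower (27.4%), again with 0 members past 2-fold by any of these tools (6.44% higher and 7.00% lower over all genes in edgeR) and a median of −0.17 beside −0.003.
In NB2i against F2i, 5 were higher (33.3% of all genes) and 4 lower (30.8%). Those past 2-fold were Nqo1 and Gstm1, 2 higher (6.01% of all genes) and 0 lower (13.3%) in edgeR, also 0 at an unadjusted p under 0.05 or by DESeq2 or limma, and the median was 0.12 beside 0.02. In NB2i against −F, 5 were higher (36.9% of all genes) and 4 lower (35.4%), with 1 past 2-fold higher (11.1% of all genes), Nqo1, and 3 lower (16.1%), Gclc, Gclm and Txnrd1. The median there was 0.09 beside 0.01. Each comparison shares samples with 2 of the others, so these are not 4 independent results. NB2i and −F were both grown without feeders, and fibroblast markers other than Fn1 summed to 2.98 to 3.57 FPKM in NB2i and 16.71 to 16.78 in −F. Of the 18 markers, 11 were lower and 2 higher in NB2i against −F in edgeR (35.4% and 36.9% of all genes). In NB2i against F2i, 17 were lower and 1 (Fn1) higher (30.8% and 33.3% of all genes).

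Outside the members, 79 other genes of the pathway were listed, of which 76 passed the filter, all but Gsta1, Mgst2 and Akr1c13. In F against −F, 22 were higher and 18 lower (28.9% and 23.7%, beside 21.7% and 18.5% of all genes). In F2i against F, 31 were higher and 26 lower (40.8% and 34.2%, beside 27.3% and 27.4%). In NB2i against F2i, 39 were higher and 20 lower (51.3% and 26.3%, beside 33.3% and 30.8%). In NB2i against −F, 42 were higher and 21 lower (55.3% and 27.6%, beside 36.9% and 35.4%). No list was tested against the other genes. Nor was any list matched to them for counts, on which a call also depends, so these shares and those of the classes are descriptions. Past 2-fold in edgeR, 4 were higher and 0 lower in F against −F (5.59% and 1.65% of all genes). The count of 0 lower was the same at an unadjusted p under 0.05 and by DESeq2 or limma. In F2i against F the numbers were 9 and 8 (6.44% and 7.00% of all genes), and in NB2i against F2i 10 and 7 (6.01% and 13.3%). NB2i against −F had 18 and 9 (11.1% and 16.1%).

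Among regulators, 7 of 12 were higher in F against −F (21.7% of all genes) and 0 lower in edgeR (18.5% of all genes), also at an unadjusted p under 0.05 or by DESeq2 or limma. In the other comparisons they went both ways. They were 5 higher and 4 lower in F2i against F (27.3% and 27.4% of all genes). The counts were 3 and 6 in NB2i against F2i (33.3% and 30.8%), and 7 and 3 in NB2i against −F (36.9% and 35.4%). Bach1, the repressor that competes at AREs, had an FPKM of 10.21 and 11.00 in −F, 16.82 and 17.92 in F, 23.02 and 22.31 in F2i, and 18.19 and 19.68 in NB2i. Bach1 rose from −F to F (log2 fold change 0.73, SE 0.05, adjusted p = 4.36e-10) and from F to F2i (0.42, SE 0.05, adjusted p = 3.15e-07), and fell from F2i to NB2i (−0.25, SE 0.05, adjusted p = 0.000146). Hmox1, the best known BACH1 target, rose with Bach1 from −F to F, fell while Bach1 rose from F to F2i, and was not called from F2i to NB2i.
Cul3, the scaffold of the KEAP1 ligase, kept a level of 34.02 to 36.59 FPKM in all 8 samples and was called once, higher in F2i than in F (log2 fold change 0.11, SE 0.04, adjusted p = 0.0304). Sqstm1, whose product p62 can sequester KEAP1, was 94.46 and 96.34 in −F, 119.75 and 111.69 in F, 108.68 and 111.44 in F2i, and 124.30 and 121.77 in NB2i, and rose from −F to NB2i (log2 fold change 0.43, SE 0.04, adjusted p = 1.29e-08). Gsk3a and Gsk3b, the kinases that CHIR99021 inhibits, moved apart from −F to NB2i, where Gsk3a fell (−0.24, SE 0.04, adjusted p = 6.15e-05) and Gsk3b rose (0.60, SE 0.05, adjusted p = 1.93e-10).

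Of 10 genes that supply or use glutathione other than the ligase, 8 were higher and 2 lower in NB2i against −F, beside 36.9% and 35.4% of all genes. Gss, glutathione synthetase, which completes glutathione after the ligase step, had an FPKM of 7.24 and 7.54 in −F, 8.27 and 8.25 in F, 24.44 and 25.64 in F2i, and 28.10 and 28.38 in NB2i. Gss rose 3.09-fold from F to F2i (adjusted p = 1.31e-14) and 4.01-fold from −F to NB2i (log2 fold change 2.00, SE 0.07, adjusted p = 9.31e-17), so that it and the ligase subunits went in opposite directions.
Slc7a11, the cystine importer, stayed low everywhere, from 0.03 to 0.15 FPKM in −F, F and F2i against 0.93 and 0.92 in NB2i, a log2 fold change of 2.70 from F2i to NB2i (SE 0.20, adjusted p = 1e-10). Glrx, glutaredoxin, was 0.93 in each −F sample and 2.50 and 2.36 in F, a log2 fold change of 1.41 (SE 0.22, adjusted p = 2.36e-05). Gpx2, a selenium-dependent glutathione peroxidase, was 29.93 and 29.17 FPKM in F, 9.25 and 8.81 in F2i, and 80.31 and 81.52 in NB2i. Gpx2 fell 3.19-fold from F to F2i (adjusted p = 7.88e-14) and rose 8.99-fold from F2i to NB2i (adjusted p = 8.35e-20).

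Of 18 glutathione transferases tested, 11 were higher and 4 lower in NB2i against −F (61.1% and 22.2%, beside 36.9% and 35.4% of all genes). NB2i against F2i had 11 higher and 3 lower (61.1% and 16.7%, beside 33.3% and 30.8%). More were lower than higher in F2i against F, 8 and 5 (44.4% and 27.8%, beside 27.4% and 27.3%). The same held in F against −F, with 6 lower and 2 higher (33.3% and 11.1%, beside 18.5% and 21.7%). Gstp2, of the pi class, was 38.16 and 36.97 FPKM in −F, 84.84 and 84.36 in F, 123.89 and 133.50 in F2i, and 238.20 and 232.18 in NB2i, and rose 6.56-fold from −F to NB2i (adjusted p = 7.52e-21). Its split from the near-identical Gstp1 is uncertain, and the summed CPM of the pair was 2.55 times as high in NB2i as in −F, a value without a test. Gsta2 and Gsta3, of the alpha class like Gsta4, rose from −F to NB2i at low levels. Gsta2 went from 0.12 and 0.06 FPKM, too few counts for a firm fold, to 1.11 and 1.06 (adjusted p = 0.000122), and Gsta3 from 0.22 and 0.50 FPKM to 2.70 and 2.99 (adjusted p = 1.6e-08). Gstm7 and Gstt2 rose from F2i to NB2i by 3.96-fold and 5.35-fold (adjusted p = 2.16e-07 and 3.27e-14). The fold of Gstm7 rests on few counts, at 0.71 and 0.82 FPKM in F2i.
Gsto1, of the omega class, rose 2.70-fold from F to F2i (adjusted p = 1.36e-16), and Gstk1 fell 3.64-fold in the same comparison (adjusted p = 1.3e-06). In F2i Gstk1 was at 1.37 and 0.86 FPKM (25 and 16 counts), so its fold rests on few counts. Mgst1, a membrane-bound transferase, was 1.92 to 3.00 FPKM in −F, F and F2i and 0.16 and 0.37 in NB2i, and it fell 8.73-fold from F2i to NB2i (adjusted p = 6.37e-07). Gstt1 fell 5.22-fold from −F to NB2i (adjusted p = 8.32e-08), where it was at 0.56 and 0.76 FPKM (12 and 16 counts).

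Of 11 thioredoxin and peroxiredoxin genes other than Txnrd1 and Srxn1, 6 were lower, 2 higher and 3 not called in NB2i against −F. The shares were 54.5% lower and 18.2% higher, beside 35.4% and 36.9% of all genes. In NB2i against F2i 4 were lower and 4 higher (36.4% each way, beside 30.8% and 33.3%). In F2i against F 7 were lower and 1 higher (63.6% and 9.09%, beside 27.4% and 27.3%). F against −F had 5 lower and 1 higher (45.5% and 9.09%, beside 18.5% and 21.7%). Prdx6, a peroxiredoxin that reduces phospholipid peroxides, was 172.12 and 156.96 FPKM in −F, 138.34 and 140.58 in F, 108.42 and 113.94 in F2i, and 18.85 and 18.34 in NB2i. Its fall was 5.95-fold from F2i to NB2i (adjusted p = 4.32e-20) and 8.44-fold from −F to NB2i (adjusted p = 1.44e-21). Txnip, which binds and inhibits thioredoxin, was 182.57 and 179.69 FPKM in F and 73.01 and 74.33 in F2i, a fall of 2.39-fold (adjusted p = 1.55e-16).
All 6 genes of NADPH supply, the reducing power that Txnrd1 and Nqo1 use, were higher in NB2i than in F2i (33.3% of all genes), and 5 of 6 were higher in F2i than in F (27.3% of all genes). In F against −F, 1 of these 6 was lower (18.5% of all genes) and 0 were higher in edgeR (21.7% of all genes), also at an unadjusted p under 0.05 or by DESeq2 or limma. Of 15 detoxification, iron and export genes, 6 were higher and 6 lower in NB2i against −F, 40.0% each way, near the 36.9% and 35.4% of all genes. Ephx1, the microsomal epoxide hydrolase, rose 2.58-fold from F to F2i (adjusted p = 2.31e-12), and Akr1b8, an aldo-keto reductase, fell 6.76-fold from F2i to NB2i (adjusted p = 1.45e-11). Of 4 genes that remove superoxide or peroxide, all 4 were higher in F2i against F (27.3% of all genes), among them Sod3 at 0.14 to 0.63 FPKM in these samples. Sod3 was 0 and 0.02 FPKM in −F and 0 in both NB2i samples. The class had 2 higher and 1 lower in F against −F (21.7% and 18.5% of all genes). It also had 2 and 1 in NB2i against F2i (33.3% and 30.8%). In NB2i against −F, 3 were higher and 0 lower in edgeR (36.9% and 35.4%), also 0 lower at an unadjusted p under 0.05 or by DESeq2 or limma.

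**Figure D4:**
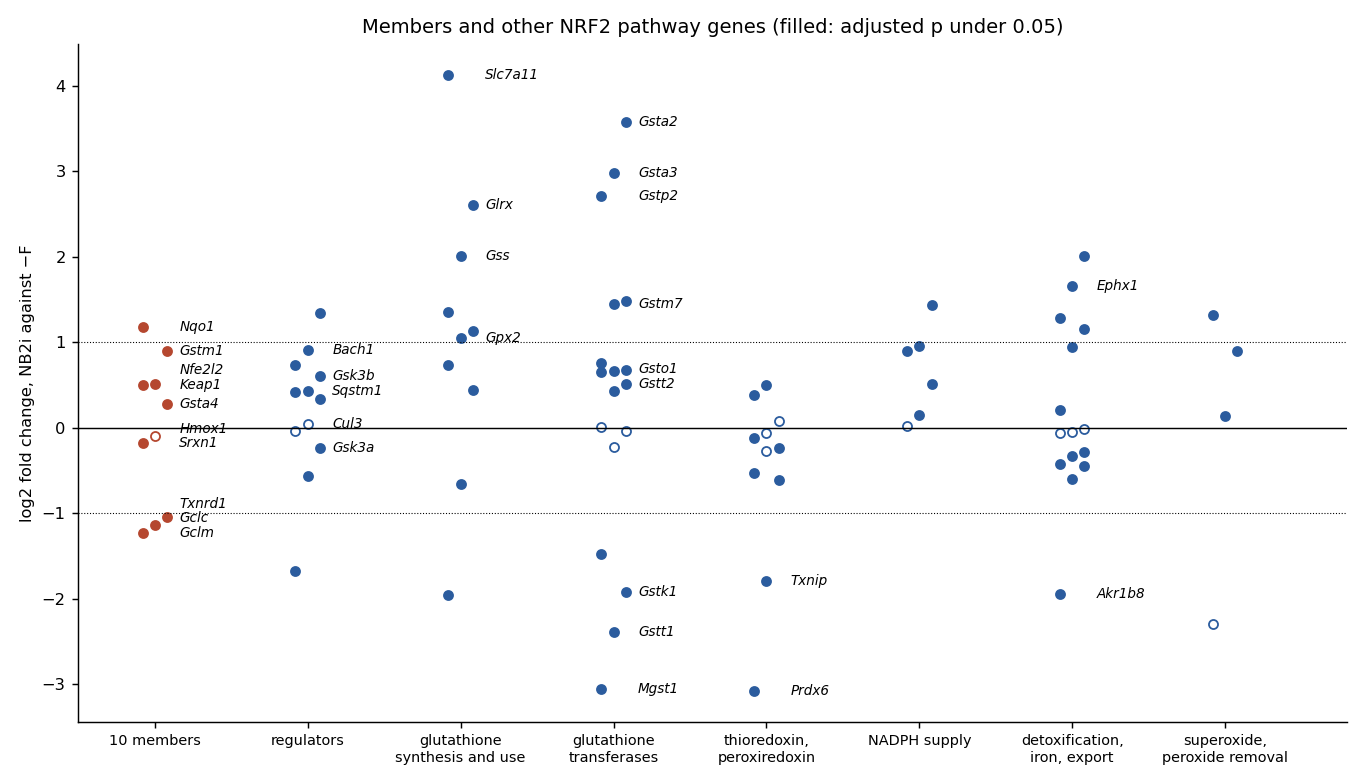
edgeR log2 fold changes of NB2i against −F (y axis) for the 10 members (red) and 76 other pathway genes (blue) by class (x axis); each point is a gene, filled where adjusted p was under 0.05, dotted lines mark 2-fold, and named genes are labelled. With the members kept as 1 class, NADPH supply is the one class with all of its points above 0. This rests on G6pdx, which was not called. Its FPKM was slightly lower in NB2i (32.25 and 31.82) than in −F (33.57 and 32.47).

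The genes whose profile over the 8 samples was most like Nqo1, by Pearson's r of log2(FPKM + 1) among 9466 genes at 5 FPKM or more in a condition, were Efna4 (r = 0.9996), Kdelc2 (0.9967) and Akip1 (0.9957). Mean FPKM of Efna4 was 6.81 in −F, 5.57 in F, 6.34 in F2i and 11.48 in NB2i. As many as 326 genes had an r of 0.95 or more with Nqo1, a profile set mainly by the NB2i pair. For Hmox1 the nearest were Agpat3 (0.9801), Atg9a (0.9764) and Manba (0.9749), and 13 genes reached 0.95. Mean FPKM of Manba was 23.21 in −F, 30.54 in F, 19.98 in F2i and 19.18 in NB2i, highest in F as Hmox1 was.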

How the data were processed

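The authors mapped reads of poly-A RNA to mm10 with Bowtie2 and counted genes by RSEM. Each sample's deposited table holds the expected count of each gene, not normalized and not always whole (29.8% of values), together with its FPKM, the same estimate scaled by transcript length and depth. The deposited files also give a transcript length, used only to describe them. A gene absent from a file was taken as 0. Groups and replicates came from the sample titles, and no sample was pooled or left out.

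Expected counts, rounded to whole numbers, entered edgeR 4.0.16 (R 4.3.3, TMM, glmQLFit and glmQLFTest) in one fit of all 8 samples by condition, on the 15287 genes that reached 10 counts in 2 samples or more. P-values were two-sided and adjusted by Benjamini and Hochberg's method over all genes tested in a comparison, with calls at 0.05 and, where stated, 2-fold. The biological coefficient of variation was 3.25%, and small adjusted p-values rest on this model, because 2 samples against 2 cannot give an exact permutation p below 0.333. FPKM is given as deposited and was not tested in the main fit. DESeq2 1.42.0, limma 3.58.1 on log-transformed FPKM (log2, pseudocount 1 or 0.1) with or without a minimum of 0.5 FPKM, other filters, a replicate block and leaving out each sample were the alternatives. The procedure was also run on counts simulated at a fixed dispersion with few changed genes, unlike these data, so that run does not bear on the calls made here. Each replicate counted as 1 sample. Replicates differed by more than counting noise (chi-square per degree of freedom 1.885 to 3.712), which cannot show whether they were separate cultures.

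The 10 members, the pathway lists and the marker lists were chosen with earlier results of these data known. The genes named were all members, the 3 pathway genes with the largest rise and the 3 with the largest fall per comparison (adjusted p under 0.05, 2-fold, at least 1 FPKM in the higher group, no overlap), 6 regulators and importers named whatever they did, and the 3 genes most correlated with Nqo1 and Hmox1. Promoter sequences came from RefSeq on GRCm38.p6.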

Additional observations from a re-analysis of the deposited data

How the results depend on the processing

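Of 520 alternative values of the 40 member fold changes, 472 kept direction and call, 17 lost the call and 6 gained it. The 25 that changed sign were all of uncalled differences near 0. For Gclc in F against −F they were −0.0143 with DESeq2 or its size factors, −0.0053 without a filter and −0.0219 or −0.0225 with limma, and for Txnrd1 −0.0026 with limma. For Gstm1 in F2i against F they were −0.0125 or −0.0128 with limma. For Hmox1 in NB2i against F2i they were −0.0142 and −0.0143 with DESeq2 and its size factors, −0.0319 with 10 counts in every sample, −0.0191 with those groups alone and −0.0019 with limma. Leaving out single samples gave −0.0103 to 0.0077 for Gclc in F against −F, −0.0614 to 0.1103 for Gstm1 in F2i against F and −0.0475 to 0.0572 for Hmox1 in NB2i against F2i. It also left 2 to 3 members lower in NB2i against F2i in place of 4, and the calls lost were those of Gclm and Gsta4.

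Of 312 alternative counts, 284 stayed within 1.5 times. The counts of all genes past 2-fold moved. With 10 counts in every sample, F against −F had 306 higher and 87 lower in place of 855 and 252, F2i against F 528 and 582 in place of 985 and 1070, NB2i against F2i 562 and 951 in place of 918 and 2038, and NB2i against −F 1410 lower in place of 2456. With limma on log2(FPKM + 1) and then without a filter, the higher genes were 280 and 268, 355 and 349, 391 and 384, and 880 and 868 in the 4 comparisons in that order, and the lower genes 29 and 27, 376 and 370, 703 and 697, and 1103 and 1098. In F against −F, DESeq2 gave 141 lower and limma on log2(FPKM + 0.1) gave 148. Stricter filters test fewer genes and a pseudocount of 1 shrinks folds of low genes by construction, and otherwise the cause was not tested. Same-numbered replicates did not deviate together (correlation −0.0346 to 0.0565), and a fit with the replicate block kept 1 member higher and 3 lower in F against −F and changed no member's call. With 2 samples a group the spread rests on the shared fit, and differences of about 0.1 on the log2 scale are at its limit.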

Other observations

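The pi-class transferases gave a further contrast within a gene pair, singled out after its values were seen. Gstp1 and Gstp2 are near-identical, so their split is uncertain, but their summed expected counts, as CPM of a sample's total, were 146 and 137 in −F, 213 and 212 in F, 242 and 250 in F2i, and 361 and 360 in NB2i. The FPKM ratio of Gstp2 over Gstp1 was 0.235 and 0.245 in −F, 0.411 and 0.412 in F, 0.604 and 0.650 in F2i, and 0.954 and 0.913 in NB2i, 4 ranges without overlap and in the same order as the sum. No test was made of the ratio. Without Gstm1, the mu-class genes Gstm2 to Gstm7 summed to 63.2 and 64.7 CPM in −F, 64.2 and 60.2 in F, 56.9 and 56.5 in F2i, and 111 and 115 in NB2i.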
